A study of Mus musculus with 12 samples.

Results

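Complement genes were examined in mouse inner medullary collecting duct (mIMCD3) cells as a set of 9 genes out of the 47642 listed: the components C3, C4b and Cfb, the soluble regulators Cfi and Serping1, the membrane regulators Cd55, Cd59a and Cr1l, and the receptor C5ar1. They were grouped by their function. RNA was sequenced from wild-type cells, from cells with both copies of Pkd1 deleted (Pkd1-/-, made with CRISPR) and from cells lacking part of Pkd2 on both copies (Pkd2-/-, made with TALEN), with 4 libraries of each genotype. PKD1 and PKD2 are the genes mutated in autosomal dominant polycystic kidney disease, and the question was how complement transcripts of a renal tubular epithelium differed when either gene was lost. The 4 libraries of a genotype came from separate dishes of 1 line, and each mutant was a single clone, so that p-values measure the spread between dishes and not between clones. All 3 lines descend from mice carrying an SV40 early region transgene (Tg(SV40E)Bri/7) that keeps the cells dividing, and all were cultured with 10% fetal bovine serum and collected 4 days after reaching confluency, with no other treatment.

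Complement is a cascade of plasma and tissue proteins that marks surfaces for removal. The classical, lectin and alternative routes converge on the cleavage of C3, and the cascade ends in a pore assembled in the target membrane. Host cells restrain it with soluble and membrane-bound inhibitors. The liver makes most circulating complement, but kidney tubule cells also transcribe C3 and other components, and complement is known to be active in cystic kidneys.

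Values are normalized counts: reads per gene divided by a size factor for the library and rounded to whole numbers. They are not read counts, and the reads behind each library were not used here. The libraries summed to 25966273 to 28027792 normalized counts. Pkd1 stood at 682 to 883 in wild-type and at 30 to 49 in Pkd1-/- libraries, which fits those labels. Pkd2 stood at 3438 to 4467 in wild-type and at 3855 to 4135 in Pkd2-/- libraries, since exons outside the deletion are still counted, so that its total does not check the Pkd2-/- label. The epithelial keratins Krt8 and Krt18 and the collecting duct genes Hoxb7, Wnt7b, Gata3 and Hsd11b2 were present, whereas the water channel Aqp2, which defines the principal cell, was at 0 in all 12 libraries and the vasopressin receptor Avpr2 was at 1 or less.

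Of the 9 members, 5 had a mean of at least 1 normalized count and were tested, and 3 of those, Cr1l, Cd59a and C3, had a mean of at least 10. C4b, Serping1, Cd55 and C5ar1 were at 3 or fewer in every library. A gene was called when the adjusted p was under 0.05 and the log2 fold change of (normalized count + 1) was at least 1 in either direction, in a limma fit over 18552 genes with Benjamini-Hochberg adjustment. By this rule 2 members, C3 and Cfi, were lower in Pkd1-/- than in wild-type cells, where 6.24% of all tested genes were called. In Pkd2-/- cells 1 member, C3, was lower, against 9.62% of all tested genes. Between the mutants 1 member, Cfi, was higher in Pkd2-/- than in Pkd1-/- cells, against 11.8% of all tested genes. The median log2 fold change of the 5 tested members was -0.62 in Pkd1-/- and -0.33 in Pkd2-/- cells, beside 0.01 and -0.01 over all tested genes. The first of these is the value of Cfb, which had few counts, and it was -1.16 without wild-type replicate 1 and -0.38 without wild-type replicate 2. The median in Pkd2-/- cells was -0.15 without Pkd2-/- replicate 3. These medians and counts leave out the 4 members that did not reach the minimum.

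Promoter sequence is shown for the 3 members with a mean of at least 10, to give the stretch before the start of each transcript and the short elements for inflammatory transcription factors that it holds. RefSeq promoters on GRCm38.p6 matched 5 of the 9 members (C3, Cd55, Cd59a, Cr1l and C5ar1). The 250 bases before the start annotated by RefSeq were searched on both strands for a C/EBP element (TTNNGNAAT), an interferon-gamma activated site (GAS, TTCNNNGAA), an interferon-stimulated response element (ISRE, GAAANNGAA) and an NF-kappaB element. Of 27025 RefSeq promoters of this length, 10.3% held the first, 7.18% the second, 7.16% the third and 7.01% the last. Below, C3 spans chr17:57228137-57228386 on the minus strand, Cd59a chr2:104095551-104095800 on the plus strand and Cr1l chr1:195131571-195131820 on the minus strand, each written 5′ to 3′ with motif matches in capitals.
C3: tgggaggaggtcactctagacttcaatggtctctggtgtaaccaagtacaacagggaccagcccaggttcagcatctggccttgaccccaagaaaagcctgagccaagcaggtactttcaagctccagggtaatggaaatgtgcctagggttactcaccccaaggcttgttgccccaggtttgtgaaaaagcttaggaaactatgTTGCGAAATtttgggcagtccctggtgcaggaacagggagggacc
Cd59a: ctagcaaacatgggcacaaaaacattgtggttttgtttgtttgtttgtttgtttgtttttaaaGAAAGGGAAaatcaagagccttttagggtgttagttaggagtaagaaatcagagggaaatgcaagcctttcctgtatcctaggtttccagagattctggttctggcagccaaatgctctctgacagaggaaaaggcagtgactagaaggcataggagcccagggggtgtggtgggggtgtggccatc
Cr1l: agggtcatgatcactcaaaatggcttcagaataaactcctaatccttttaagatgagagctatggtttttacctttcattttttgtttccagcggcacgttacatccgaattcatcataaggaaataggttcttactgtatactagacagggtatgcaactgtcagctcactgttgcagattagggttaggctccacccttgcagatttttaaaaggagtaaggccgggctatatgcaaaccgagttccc
The capitals in C3 are the C/EBP match TTGCGAAAT, from 45 to 37 bases before the start. The capitals in Cd59a are the ISRE match GAAAGGGAA, from 187 to 179 bases before the start. Cr1l and Cd55 held none of the 4 elements, and C5ar1 held an ISRE match, TTCCTTTTC on the opposite strand, from 66 to 58 bases before its RefSeq start. The C5ar1 window spans chr7:16259339-16259588, but the GENCODE gene begins at 16259540 on the minus strand. Most of this window, with the match, thus lies inside the gene as GENCODE places it. The same holds for a few bases of the Cr1l window. A match describes these letters and was not tested for binding.

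C3, the component on which all routes of activation converge (ENSMUSG00000024164, chr17:57203970-57228136 on GRCm38, minus strand), fell in both mutants. Wild-type libraries held 96, 55, 82 and 89 normalized counts (80.5 ± 17.9, SD, n = 4). Pkd1-/- libraries held 20, 31, 27 and 26 (26 ± 4.55), and Pkd2-/- libraries held 28, 16, 13 and 28 (21.25 ± 7.89). Every mutant library lay below every wild-type library, and the ranges of the mutants overlapped each other. C3 stood at 32.3% of the wild-type mean in Pkd1-/- and at 26.4% in Pkd2-/- cells. The log2 fold change was -1.58 in Pkd1-/- cells (SE 0.26, 95% interval -2.13 to -1.03, limma adjusted p = 0.000129) and -1.92 in Pkd2-/- cells (SE 0.26, 95% interval -2.47 to -1.37, limma adjusted p = 7.73e-06). The difference between the mutants was -0.34, with an interval of -0.89 to 0.21 (limma adjusted p = 0.323), and so was not distinguishable from 0. The exact permutation test, two-sided with 4 against 4 libraries, gave p = 0.0286 for each mutant against wild-type, the smallest value it can give. C3 is among the genes the study selected as changed in both mutants on these same libraries, so its fall is not independent evidence of that selection. In bulk RNA, fewer cells with C3 transcripts and less C3 RNA per cell cannot be told apart.

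C3 and Pkd1 both lie on chromosome 17, 32.6 Mb apart. Among the 34 genes within 1 Mb of C3 whose mean reached 10, the median was 0.03 for Pkd1-/- and -0.14 for Pkd2-/- cells against wild-type, on the log2 fold change scale. C3 lay well below these medians in both mutants. The genes whose pattern over the 12 libraries was most like that of C3, by Pearson correlation on the log2 scale among 13702 genes, were Bbs12 (r = 0.955), Phactr4 (r = 0.946) and Creb3l2 (r = 0.942). Bbs12 belongs to a chaperonin-like group needed to assemble the ciliary BBSome. Its mean was 992.5 ± 44.2 in wild-type libraries, 709.8 ± 16 in those of Pkd1-/- and 592.8 ± 34.6 in those of Pkd2-/- cells (SD, n = 4). All 3 neighbours in pattern were higher in wild-type than in either mutant, and the correlations are over libraries that share their genotype grouping and carry no test.

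Macrophages also make C3. Of 7 macrophage markers, Adgre1 and Mrc1 were at 0 in all 12 libraries, Lyz2 at 1 or less and Ptprc, present on all white blood cells, at 5 or fewer. The sum of the 7, carried by Csf1r and Cd68, was 895 to 1002 in wild-type, 428 to 655 in Pkd1-/- and 738 to 832 in Pkd2-/- libraries. The lower sum in both mutants was that of Csf1r, which averaged 880.5, 479.2 and 734 in the same order (limma adjusted p = 1.44e-06 in Pkd1-/- and 0.0422 in Pkd2-/- against wild-type). Cd68 averaged 61.75, 57 and 57.5 and passed the test in neither mutant (limma adjusted p = 0.637 and 0.647). Fcgr1, at 6 or fewer, averaged 1.25, 3.25 and 3.25 (limma adjusted p = 0.483 and 0.45). Of the 4 markers tested, only Ptprc was called, lower in Pkd1-/- cells (limma adjusted p = 0.0451), where 6.24% of all tested genes were called. Ptprc reached the minimum mean only through wild-type libraries. By the adjusted p alone 2 were lower in Pkd1-/- and 1 in Pkd2-/- cells, beside 27.1% and 42.3% of all tested genes.

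**Figure D1:**
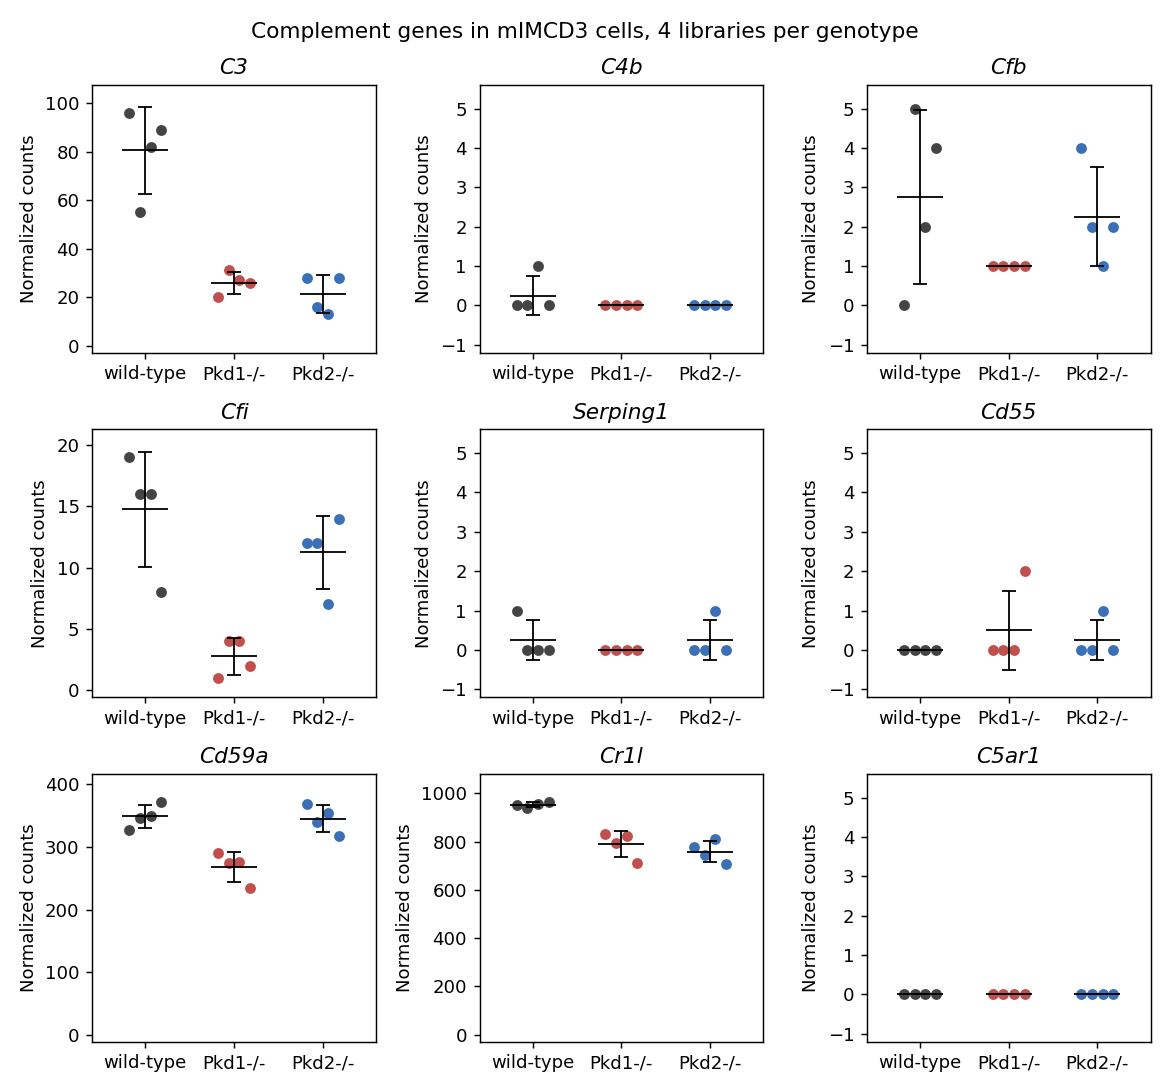
Normalized counts (vertical axis, linear scale) of the 9 complement genes in wild-type, Pkd1-/- and Pkd2-/- libraries; each point is 1 library, and the horizontal line and bars give the mean ± SD of 4. C3 is lower in all 8 mutant libraries, Cfi and Cd59a are lower in the Pkd1-/- libraries alone, Cr1l is slightly lower in both mutants, and the 4 panels of C4b, Serping1, Cd55 and C5ar1 sit at or near 0.

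Cfb and C4b, the components that join C3 in the enzymes that cleave it, were scarcely counted. Cfb (factor B, of the alternative route, ENSMUSG00000090231, chr17:34856374-34862518, minus strand) held 0, 5, 2 and 4 normalized counts in wild-type libraries. It held 1 in each Pkd1-/- library and 4, 2, 1 and 2 in Pkd2-/- libraries. The 3 groups overlapped. The log2 fold change was -0.62 in Pkd1-/- (95% interval -1.76 to 0.52, limma adjusted p = 0.453) and 0.00 in Pkd2-/- cells (95% interval -1.14 to 1.14, limma adjusted p = 1), so that log2 fold changes of 1 in either direction lie inside the Pkd2-/- interval.

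The level of Cfb is uncertain. A same-strand gene model, Gm20547, covers 79.5% of the 2825 exon bases of Cfb, and it was at 0 in all 12 libraries. Reads on shared exons can be assigned to neither gene, depending on the counting mode, and what this took from Cfb was not tested. Mir6972, a microRNA gene model inside Cfb but outside its exons, held 4 to 6 normalized counts in wild-type, 2 to 11 in Pkd1-/- and 3 to 6 in Pkd2-/- libraries, with means of 5, 5 and 3.75. Gm20547 also covers 42.8% of the exon bases of the adjoining gene C2, which encodes the classical-route counterpart of factor B. C2 held 3, 14, 5 and 4 normalized counts in wild-type, 2, 8, 3 and 3 in Pkd1-/- and 3, 3, 11 and 5 in Pkd2-/- libraries, with overlapping groups.

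C4b (ENSMUSG00000073418, chr17:34728380-34743882, minus strand), which encodes complement component C4, had 1 normalized count in wild-type replicate 3 and 0 in the other 11 libraries. Its near-identical copy C4a lies in the same region and can share its reads. C4a held 2, 1, 3 and 1 normalized counts in wild-type libraries, 13, 4, 5 and 7 in Pkd1-/- libraries and 0, 2, 2 and 1 in Pkd2-/- libraries. All Pkd1-/- libraries lay above all others. C4a was called in Pkd1-/- against wild-type cells (log2 fold change 1.53, SE 0.49, limma adjusted p = 0.0247), where the fold was at least 2.42 against a floor of 3 counts per library. It was also called in Pkd2-/- against Pkd1-/- cells (limma adjusted p = 0.00351), at least 2.42-fold lower. With 5 in place of 1 added to the normalized counts, C4a fell under the fold threshold in both comparisons. Because the reads of the copies may be divided between them, the C4 transcript that rose is uncertain.

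Cfi (factor I, the protease that cuts C3b and C4b and so stops amplification, ENSMUSG00000058952, chr3:129835884-129875332, plus strand) fell in Pkd1-/- cells. Wild-type libraries held 19, 16, 16 and 8 normalized counts (14.75 ± 4.72, SD, n = 4). Pkd1-/- libraries held 1, 4, 4 and 2 (2.75 ± 1.5), and Pkd2-/- libraries held 12, 12, 7 and 14 (11.25 ± 2.99). All Pkd1-/- libraries lay below all libraries of both other genotypes, while wild-type and Pkd2-/- libraries overlapped. The log2 fold change in Pkd1-/- cells was -2.11 (SE 0.39, 95% interval -2.92 to -1.30, limma adjusted p = 0.000353). In Pkd2-/- cells it was -0.34, with an interval of -1.15 to 0.47 (limma adjusted p = 0.527), which includes a fall of 1. The mutants differed directly: Cfi was higher in Pkd2-/- than in Pkd1-/- cells by 1.77 on the log2 scale (SE 0.39, 95% interval 0.96 to 2.58, limma adjusted p = 0.000856). With a pseudocount of 5 in place of 1, Cfi stayed called at -1.33 in Pkd1-/- against wild-type and at 1.07 between the mutants. Cfi had a mean under 10 normalized counts and was not tested where that minimum was required. Among the 14 genes within 1 Mb of Cfi whose mean reached 10, the same median was -0.12 for Pkd1-/- and -0.34 for Pkd2-/- cells. Gata3, a collecting duct transcription factor, was also low in Pkd1-/- libraries, at 42 to 56 beside 176 to 248 in wild-type and 294 to 430 in Pkd2-/- libraries (log2 fold change in Pkd1-/- -2.20, SE 0.14, limma adjusted p = 6.34e-10). Of 11 duct and epithelial markers, 9 were tested, and Gata3 was the only 1 called in Pkd1-/- against wild-type cells. By the adjusted p alone 2 of the 9 were lower and 1, Hsd11b2, was higher (log2 fold change 0.55, SE 0.14, limma adjusted p = 0.00546). Over all tested genes, 6.24% were called and 27.1% passed the adjusted p. The part of Gata3 in the Cfi result was not tested.

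Serping1 (C1 inhibitor, which blocks the proteases of the classical and lectin routes, ENSMUSG00000023224, chr2:84765387-84775444, minus strand) had 1 normalized count in wild-type replicate 1, 1 in Pkd2-/- replicate 3 and 0 in the other 10 libraries. No difference was detectable at this depth.

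Cr1l and Cd59a, both membrane regulators, were the most abundant members. Cd59a (ENSMUSG00000032679, chr2:104095801-104115354, plus strand) encodes the surface protein that keeps the terminal pore from assembling. It held 327, 347, 350 and 372 normalized counts in wild-type libraries (349 ± 18.4, SD, n = 4). It held 290, 274, 276 and 234 in Pkd1-/- (268.5 ± 24.1) and 369, 340, 354 and 318 in Pkd2-/- libraries (345 ± 21.7). The Pkd1-/- libraries lay below all others, and wild-type and Pkd2-/- libraries overlapped. Cd59a was lower in Pkd1-/- cells by a small step that passed the adjusted p but not the fold threshold (log2 fold change -0.38, SE 0.08, 95% interval -0.56 to -0.20, limma adjusted p = 0.00202). In Pkd2-/- cells it was -0.02, with an interval of -0.19 to 0.16 (limma adjusted p = 0.904). Cd59a was higher in Pkd2-/- than in Pkd1-/- cells by 0.36 (SE 0.08, 95% interval 0.19 to 0.54, limma adjusted p = 0.00146).

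The copy Cd59b, next to Cd59a on chromosome 2, held 0, 1, 1 and 0 normalized counts in wild-type libraries, 3, 5, 1 and 3 in Pkd1-/- and 0, 2, 0 and 0 in Pkd2-/- libraries. With the copies summed, the log2 fold change of Cd59a in Pkd1-/- cells was -0.37. Cd59b was called only in Pkd2-/- against Pkd1-/- cells (limma adjusted p = 0.0324), where the libraries overlapped and no fold is given for counts this low.

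Cr1l (Crry, the rodent membrane protein that inactivates C3 and C4 convertases on the cell's own surface, ENSMUSG00000016481, chr1:195097382-195131586, minus strand) held 950, 939, 957 and 965 normalized counts in wild-type libraries (953 ± 11.03, SD, n = 4). It held 831, 794, 825 and 713 in Pkd1-/- (791 ± 54.3) and 776, 744, 810 and 707 in Pkd2-/- libraries (759 ± 44.0). Both mutants lay below the wild-type range and overlapped each other. The log2 fold change was -0.27 in Pkd1-/- (SE 0.06, 95% interval -0.40 to -0.14, limma adjusted p = 0.00251) and -0.33 in Pkd2-/- cells (SE 0.06, 95% interval -0.46 to -0.20, limma adjusted p = 0.000246). The mutants differed by -0.06, with an interval of -0.19 to 0.07 (limma adjusted p = 0.486). These falls passed the adjusted p but not the fold threshold.

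Cd55 (decay-accelerating factor, ENSMUSG00000026399, chr1:130439027-130462744, minus strand) had 2 normalized counts in Pkd1-/- replicate 4, 1 in Pkd2-/- replicate 3 and 0 in the other 10 libraries, and its copy Cd55b was at 0 in all 12. Of the membrane regulators in the set, transcripts of Cr1l and Cd59a were thus readily counted and those of Cd55 near 0 in every genotype. C5ar1 (ENSMUSG00000049130, chr7:16246743-16259540, minus strand), the receptor for the C5a fragment, was at 0 in all 12 libraries, which allows up to 3 counts per library.

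Small differences in either direction were common in these data. By the adjusted p alone, with no fold threshold, 27.1% of all tested genes passed in Pkd1-/- against wild-type, 42.3% in Pkd2-/- against wild-type and 46.3% in Pkd2-/- against Pkd1-/- cells. By that rule 4 of the 5 tested members were lower in Pkd1-/- (C3, Cfi, Cd59a and Cr1l) and 2 in Pkd2-/- cells (C3 and Cr1l), while 2 were higher in Pkd2-/- than in Pkd1-/- cells (Cfi and Cd59a). The same genes were those whose libraries did not overlap, beside 27.1%, 37.2% and 41.8% of all tested genes in the same 3 comparisons. The shares of the members in Pkd2-/- against wild-type and between the mutants, each 2 of 5, are close to those backgrounds. Both mutants were compared with the same 4 wild-type libraries, so their falls are not independent of each other.

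**Figure D2:**
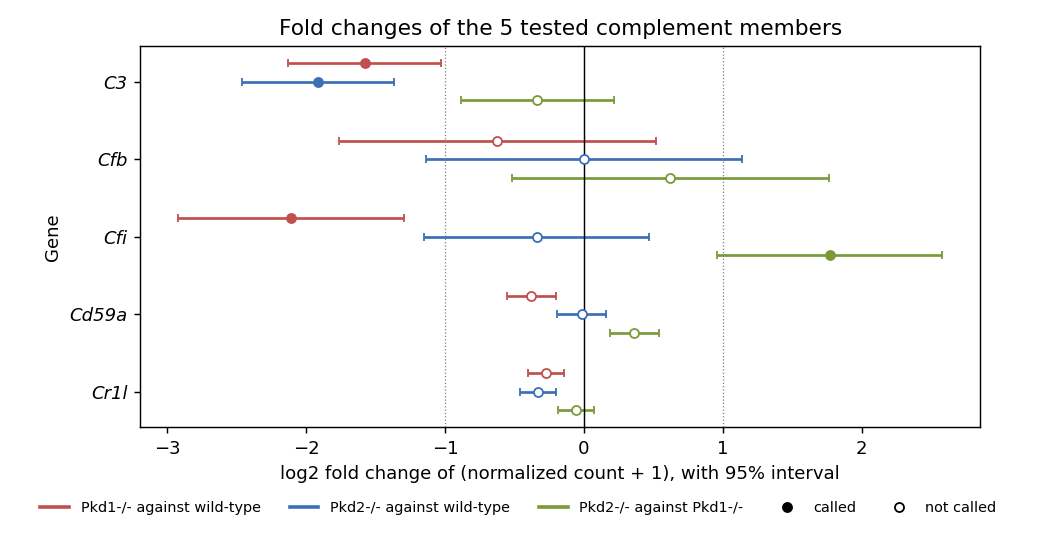
Log2 fold change of (normalized count + 1) of the 5 tested members (horizontal axis) with 95% intervals from the limma fit, for each mutant against wild-type and for Pkd2-/- against Pkd1-/-; filled points are called, open points are not, and dotted lines mark a log2 fold change of 1 in either direction. C3 is called at -1.58 and -1.92 in the mutants, Cfi at -2.11 in Pkd1-/- alone, and the small falls of Cd59a and Cr1l have narrow intervals that do not reach the dotted lines.

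Per kilobase of exon, the wild-type level was highest for Cd59a at 193 (181 to 205 over libraries), followed by Cr1l at 92.1 (90.7 to 93.2), C3 at 15.7 (10.7 to 18.7), Cfi at 6.64 (3.60 to 8.56) and Cfb at 0.973 (0 to 1.77). No neighbours in this order overlapped in wild-type libraries. The order was the same in Pkd1-/- libraries, where C3 stood at 5.06 and Cfi at 1.24 per kilobase. In Pkd2-/- libraries Cfi, at 5.07 (3.15 to 6.31), and C3, at 4.13 (2.53 to 5.44), overlapped and their order was not resolved. Among 18477 tested genes with a known length, 64.2% lay below Cd59a, 52.2% below Cr1l and 33.2% below C3 in wild-type cells. Cd59a and Cr1l thus stood near the middle of the range, and the component C3 in its lower part. C3 stood above 21.9% of the genes in Pkd1-/- and 21.2% in Pkd2-/- cells, and Cfi moved from 24.9% in wild-type to 9.70% in Pkd1-/- cells.

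The rest of the pathway was followed in a list of 52 other complement genes, of which 20 were tested, 19 were at 0 in every library and 30 were at 3 or fewer in every library. The subunits of C1q, the collectins Mbl1 and Mbl2, and the pore components C6, C7, C8a and C8b were among those at 0. In Pkd1-/- against wild-type cells 2 of the 20 were called higher (C1ra and C4a) and 2 lower (Masp1 and Csmd3), where 6.24% of all tested genes were called in either direction. In Pkd2-/- against wild-type cells 1 was called higher (Cpn1) and 3 lower (Clu, Masp1 and Csmd3), against 9.62% of all tested genes. Between the mutants 2 were higher in Pkd2-/- (Cpn1 and Colec11) and 6 lower (C1ra, C4a, C4bp, Cd59b, Clu and Csmd3), against 11.8% of all tested genes. Masp1, Colec11 and Cd59b reached the minimum mean only through the genotype where they were highest. Their calls are therefore not independent of that minimum. The median log2 fold change of the list was -0.06, -0.08 and 0 in the 3 comparisons, and the same with genes at 3 or fewer counts in a group set to their bound, so the list had no common direction.

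C1ra, a protease of the first classical complex, held 11, 9, 11 and 8 normalized counts in wild-type libraries, 37, 33, 26 and 22 in Pkd1-/- and 9, 8, 8 and 3 in Pkd2-/- libraries. The Pkd1-/- libraries lay above all others (log2 fold change 1.49, SE 0.32, limma adjusted p = 0.00161), and the fold change in Pkd2-/- cells was -0.50 (SE 0.32, limma adjusted p = 0.235). Masp1, a protease of the lectin route, held 4, 8, 4 and 6 normalized counts in wild-type libraries and 0 in all 8 mutant libraries, at least 1.83-fold lower. It reached the minimum mean through its wild-type libraries alone, so a fall was the only outcome its test could show. Csmd3, a large membrane protein with complement control domains, held 61, 53, 87 and 81 in wild-type and 10, 8, 13 and 5 in Pkd1-/- libraries. Its mean fell 7.83-fold, and the fit with the pseudocount gave a log2 fold change of -2.88 (SE 0.33, limma adjusted p = 2.04e-06). Csmd3 was at 0 in all Pkd2-/- libraries, at least 23.5-fold below wild-type.

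Fibroblasts also make C1r. Of 6 fibroblast markers, Pdgfra was at 2 or fewer, Pdgfrb at 4 or fewer and Lum at 1 or less in every library. The sum of the 6, carried by Dcn, Col3a1 and Col1a1, was 29 to 55 in wild-type, 89 to 103 in Pkd1-/- and 15 to 97 in Pkd2-/- libraries. Col3a1 alone held 3 to 7, 62 to 69 and 0 to 42. The higher sum in Pkd1-/- libraries was that of Col3a1. Dcn averaged 25.75 in wild-type and 20 in Pkd1-/- libraries, and Col1a1 4.25 and 5.25 (limma adjusted p = 0.554 and 0.723). C1ra was also high in the Pkd1-/- libraries, and any link between Col3a1 and C1ra was not tested.

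Clu, which encodes clusterin, a secreted chaperone that also binds the forming pore, fell in Pkd2-/- cells. It held 382, 301, 352 and 367 normalized counts in wild-type libraries (350.5 ± 35.2, SD, n = 4), 464, 426, 353 and 375 in Pkd1-/- (404.5 ± 50.1) and 81, 73, 82 and 54 in Pkd2-/- libraries (72.5 ± 13.0). The Pkd2-/- libraries lay below all others, a 4.83-fold fall from wild-type (log2 fold change -2.27, SE 0.13, limma adjusted p = 6.33e-11), while wild-type and Pkd1-/- libraries overlapped (0.20, SE 0.13, limma adjusted p = 0.285). Cpn1, the catalytic chain of the carboxypeptidase that blunts C3a and C5a, held 18, 20, 19 and 11 in wild-type, 14, 8, 15 and 27 in Pkd1-/- and 98, 64, 93 and 81 in Pkd2-/- libraries. Its mean was 4.94-fold above wild-type in Pkd2-/- cells, with no overlap. The fit with the pseudocount gave a log2 fold change of 2.25 (SE 0.30, limma adjusted p = 5.5e-06).

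Low counts carried the other calls. C4bp, a soluble cofactor for factor I, held 5, 3, 5 and 1 normalized counts in wild-type, 13, 8, 12 and 5 in Pkd1-/- and 0, 0, 5 and 2 in Pkd2-/- libraries, and was called between the mutants (-2.27, SE 0.57, limma adjusted p = 0.00286) although 1 library of each touched at 5. Colec11, a collectin, held 1, 2, 2 and 2 in wild-type, 0, 1, 1 and 1 in Pkd1-/- and 4, 4, 3 and 4 in Pkd2-/- libraries, and was called between the mutants (limma adjusted p = 0.00743), at least 1.25-fold higher in Pkd2-/- cells.

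Of the 52 genes, the highest per kilobase in wild-type cells was C1qbp (7250 ± 462 normalized counts, SD, n = 4), a largely mitochondrial protein named for binding C1q. Next came Susd4 (2479 ± 168), a membrane protein with complement control domains, then Clu, C8g and Cfp, which encodes properdin. C1qbp was higher in Pkd2-/- cells by 0.34 on the log2 scale (SE 0.06, limma adjusted p = 7.14e-05), Susd4 by 0.20 (SE 0.06, limma adjusted p = 0.00845) and C8g by 0.56 (SE 0.21, limma adjusted p = 0.0389), all under the fold threshold. None of these 3 passed the adjusted p in Pkd1-/- cells. Cfp held 30 to 58 normalized counts in wild-type, 30 to 59 in Pkd1-/- and 27 to 33 in Pkd2-/- libraries and differed from wild-type in neither mutant (limma adjusted p = 0.698 and 0.149).

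**Figure D3:**
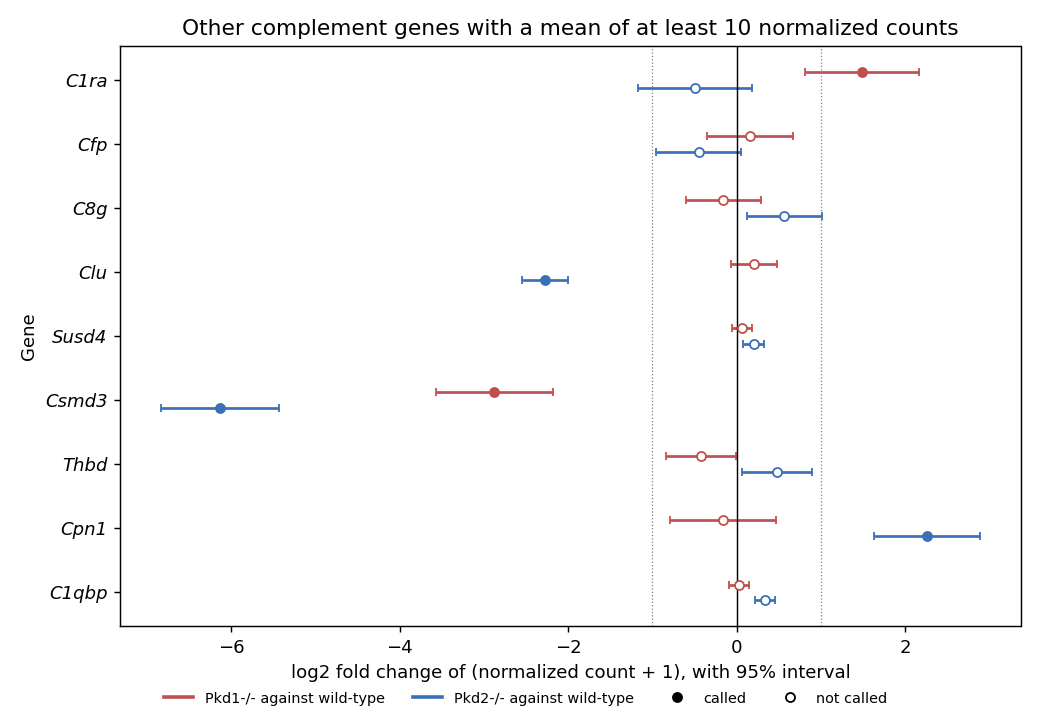
Log2 fold change of (normalized count + 1) against wild-type (horizontal axis) with 95% intervals from the limma fit, for the 9 genes of the other complement list whose mean reached 10; red is Pkd1-/-, blue is Pkd2-/-, filled points are called and dotted lines mark a log2 fold change of 1. C1ra is called higher in Pkd1-/- cells, Clu lower and Cpn1 higher in Pkd2-/- cells, and Csmd3 lower in both; the Pkd2-/- point of Csmd3, at 0 in every library, depends on the pseudocount.

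Complement genes of epithelial cells are known to be induced by interferon-gamma, interleukins and tumour necrosis factor through STAT, C/EBP and NF-kappaB factors. A list of 16 such receptors and factors, all tested, was read from the same fit. None of the 16 was called in Pkd1-/- against wild-type cells, where 3 were higher and 5 lower by the adjusted p alone (limma) and 10 had an unadjusted p under 0.05. Over all tested genes, 6.24% were called and 27.1% passed the adjusted p in this comparison. In Pkd2-/- cells 2 were called higher (Cebpb and Il6ra) and 1 lower (Cebpa), with 8 higher and 3 lower by the adjusted p alone, beside 9.62% and 42.3% of all tested genes.

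Both called transcription factors are of the family whose element was matched in the C3 promoter printed above. Cebpb held 771, 814, 885 and 739 normalized counts in wild-type, 827, 890, 857 and 788 in Pkd1-/- and 2080, 1894, 2341 and 2323 in Pkd2-/- libraries. All Pkd2-/- libraries were above all others (log2 fold change 1.43, SE 0.07, limma adjusted p = 1.18e-11). Cebpa held 36, 48, 40 and 37 in wild-type, 35, 14, 20 and 25 in Pkd1-/- and 4, 0, 3 and 5 in Pkd2-/- libraries. The 3 genotypes did not overlap, and the fold change passed the test in Pkd2-/- (-3.63, SE 0.45, limma adjusted p = 2.11e-06) but not in Pkd1-/- cells (-0.82, SE 0.45, limma adjusted p = 0.201). Cebpb and Cebpa moved in opposite directions in Pkd2-/- cells. The other C/EBP gene on the list, Cebpd, named after its values were seen, passed the test in neither mutant (limma adjusted p = 0.502 in Pkd1-/- and 0.869 in Pkd2-/- cells). No C/EBP gene on the list passed it in Pkd1-/- cells, where C3 also fell. The part of these factors in the C3 level was not tested.

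Il6ra, the interleukin-6 receptor, held 49, 54, 30 and 47 normalized counts in wild-type, 46, 74, 64 and 57 in Pkd1-/- and 113, 110, 99 and 118 in Pkd2-/- libraries (log2 fold change in Pkd2-/- 1.30, SE 0.19, limma adjusted p = 1.56e-05). The chains of the interferon-gamma receptor, named after their values were seen, were lower in both mutants with no overlap with wild-type. Ifngr1 averaged 2820 ± 93.2 normalized counts in wild-type libraries, 2093 ± 41.3 in those of Pkd1-/- and 1430 ± 53.4 in those of Pkd2-/- cells (SD, n = 4; limma adjusted p = 6.99e-07 and 3.29e-12). Ifngr2 averaged 4824 ± 201, 3112 ± 48.1 and 3712 ± 114 in the same order (SD, n = 4; limma adjusted p = 1.94e-09 and 9.24e-07). None of these falls reached a log2 fold change of 1.

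**Figure D4:**
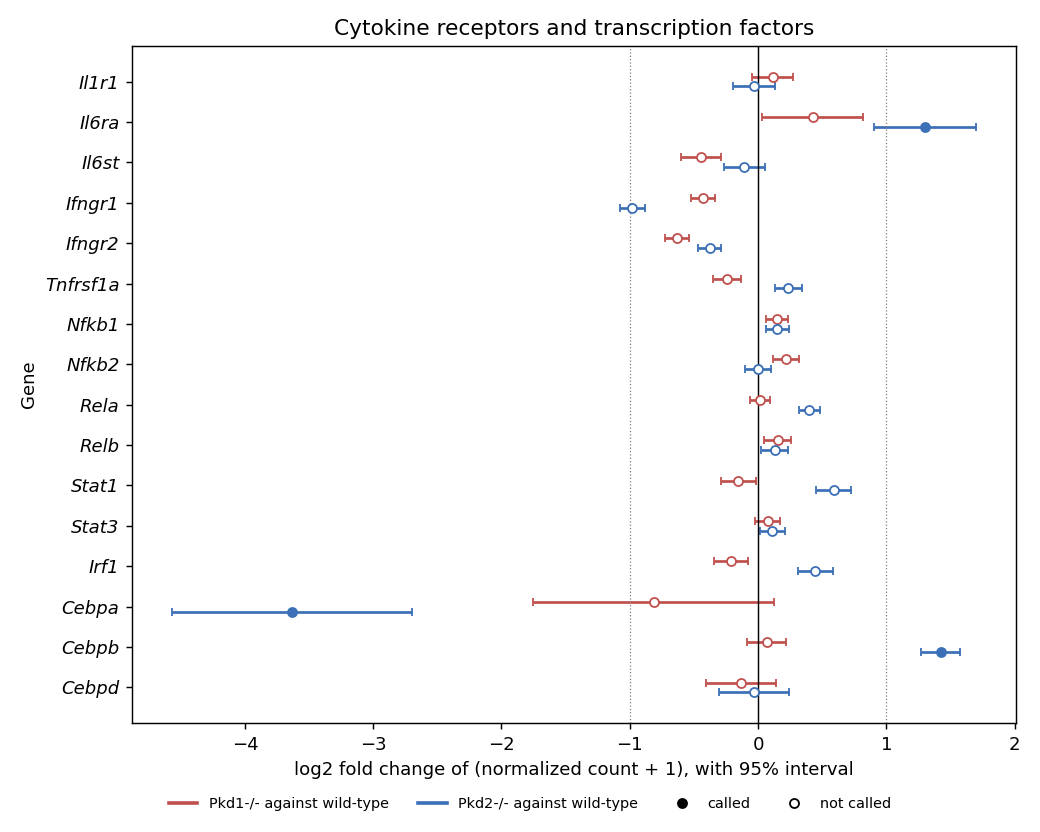
Log2 fold change of (normalized count + 1) against wild-type (horizontal axis) with 95% intervals from the limma fit, for 16 cytokine receptors and transcription factors known to induce complement genes; red is Pkd1-/-, blue is Pkd2-/-, filled points are called and dotted lines mark a log2 fold change of 1. Cebpb and Il6ra are called higher and Cebpa lower in Pkd2-/- cells, and both interferon-gamma receptor chains lie below 0 in both mutants.

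Markers of hepatocytes and endothelium, which also make complement proteins, were at or near 0. The 5 hepatocyte markers, Alb and Ttr included, summed to at most 3 normalized counts in any library. The 5 endothelial markers summed to at most 10.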

How the data were processed

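RNA of 3 mIMCD3 genotypes was sequenced, 4 libraries each. Per the labels and its methods, the authors trimmed reads (Trim Galore), aligned them to GRCm38/mm10 (HISAT2), counted them per Ensembl gene (htseq-count) and divided by DESeq2 size factors. The deposited table holds the resulting normalized counts, a score that the authors rounded to whole numbers, so no count model was used.

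Symbols, positions and exon lengths came from GENCODE M21, which holds 47223 of the 47642 identifiers, and promoters from RefSeq (GRCm38.p6). Differences were tested two-sided with limma 3.58.1 in R 4.3.3 (lmFit, eBayes with trend) on log2(normalized count + 1), over the 18552 genes averaging 1 or more, all 12 libraries in 1 model, with Benjamini-Hochberg adjustment within each comparison. The fit was tested on simulated data. Single members were also tested by exact permutation. The pseudocount makes fold changes of low genes too small. Counting limits cover counting error only, since reads are not independent molecules, and where a group held at most 3 counts in every library the fold is a lower bound against 3.

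The members and lists were chosen with earlier results of these data known. Named were all members, every gene of the other complement list and the inducer list called in any comparison, the 5 other complement genes highest per kilobase in wild-type cells, and the 3 genes most like each called member with a mean of at least 10. 1 complement gene is not reported here. No pair of libraries was identical. Alternatives were other pseudocounts (0.5 and 5), filters (none and a mean of 10), upper-quartile rescaling, a replicate block, a fit of the 2 genotypes alone, no fold threshold, copies summed, and each library left out.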

Additional observations from a re-analysis of the deposited data

Results flagged for a closer look

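The highest and lowest library of each genotype was examined, for each gene named with its values, by its gap to the nearest other library relative to the range (Dixon's 95% limit for 4 samples). Of 174 gene and genotype groups, 22 held a library that stood apart. The 174 include groups whose 4 libraries were equal, which could not be flagged. Fcgr1 and Cebpd were not examined. The limit is set to flag about 1 in 20 groups by chance, a rate that does not hold for small whole numbers. Of the 22, 5 were members at or near 0 with a few counts in 1 library: C4b with 1 normalized count in wild-type replicate 3, Serping1 with 1 in wild-type replicate 1 and 1 in Pkd2-/- replicate 3, and Cd55 with 2 in Pkd1-/- replicate 4 and 1 in Pkd2-/- replicate 3. In whole numbers this small, a single count is enough to set a library apart. C3, Cfi, Cd59a and Cr1l held no such library in any genotype.

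Among the other complement genes and the genes set beside them, C1ra stood at 3 in Pkd2-/- replicate 4, where the other libraries held 8 or 9. C2 stood at 8 in Pkd1-/- replicate 2, above 2 to 3 in the others. Colec11 stood at 1 in wild-type replicate 1, at 0 in Pkd1-/- replicate 1 and at 3 in Pkd2-/- replicate 3, each 1 count below the rest of its group. Cfp stood at 33 in Pkd2-/- replicate 2, above 27 to 28 in the others, and Cd59b stood at 2 in Pkd2-/- replicate 2, with 0 in the other libraries of that genotype. Mir6972 stood at 6 in Pkd2-/- replicate 2, above 3 in the others. Ifngr2 stood at 3040 in Pkd1-/- replicate 4, below 3133 to 3141 in the others.

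Among the cell markers, Gata3 stood at 176 in wild-type replicate 2, below 236 to 248 in the others. The remaining 7 were genes at 0 in the rest of their group: Avpr2 with 1 in Pkd1-/- replicate 3, Ptprc with 1 in Pkd1-/- replicate 2, Lyz2 with 1 in Pkd2-/- replicate 1, Pdgfra with 1 in wild-type replicate 2, Lum with 1 in Pkd2-/- replicate 1, and Alb with 2 in Pkd1-/- replicate 1 and 1 in Pkd2-/- replicate 2.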

How the results depend on the processing

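Cfb in Pkd2-/- against wild-type cells was at 0, never passed the test and took both signs (-0.54 to 0.32 with a library left out). Of the 275 other recomputed member fold changes, 273 kept their direction and their side of the threshold. The remaining 2 were Cd59a in Pkd2-/- against wild-type cells, which was 0.015 without wild-type replicate 4 and 0.023 without Pkd2-/- replicate 4, and ranged from -0.049 to 0.023 with a library left out. C3 ranged from -1.75 to -1.46 in Pkd1-/- and from -2.09 to -1.72 in Pkd2-/- cells with a library left out. With a library left out, members called were 2, 1 and 1 in every case (Pkd1-/- against wild-type, Pkd2-/- against wild-type, Pkd2-/- against Pkd1-/-), other complement genes called were 3 to 5, 4 to 6 and 7 to 8, and all genes called were 1095 to 1164, 1698 to 1793 and 2061 to 2186, beside 1158, 1785 and 2182 with all libraries.

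With a minimum mean of 10, which removes Cfi, 1 member was called in Pkd1-/- against wild-type and 0 between the mutants (limma; of the 3 members left, 1, Cd59a, had an unadjusted p under 0.05), other complement genes called were 2 and 4, and all genes called in Pkd1-/- against wild-type were 739. With no fold threshold the calls were 5020, 7852 and 8588 genes and 4, 2 and 2 members, and 7 other complement genes in Pkd2-/- against wild-type. With a pseudocount of 5, 5 other complement genes were called between the mutants and 3 in Pkd1-/- against wild-type, 1 of the 3 higher. C4a was called in neither comparison at that setting. Replicate numbers showed no general pairing of the libraries (correlations of same-numbered deviations -0.07 to 0.20, 2 of 12 over 0.1). The 2 were those of Pkd2-/- replicate 4 with replicate 4 of wild-type (0.20) and of Pkd1-/- (0.17). Different-numbered pairs ran from -0.20 to 0.11. A factor shared by the replicate 4 libraries was not tested. The replicate block gave 1170, 1790 and 2183 genes called and 2, 1 and 1 members. Genes with few counts, Cfi, Cfb and Masp1 among them, limit what can be resolved, and each mutant is 1 clone.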
